A study of Mus musculus with 3 samples.

Results

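mmu-miR-103 and mmu-miR-107, here miR-103 and miR-107, are near-identical mouse microRNAs (miRNAs), small RNAs of which a short 5′ stretch, the seed, pairs with target messenger RNAs and lowers their output. Both were chosen by name, as 2 of the 568 mouse miRNA names on the array, each read by a single probe, and with earlier results of these data in view. The RNA came from cultured dendritic cells of mouse marrow (BMDCs), which take up and present antigen, and was read on 3 single-colour capture arrays. The first array held BMDCs kept for 24 h across a transwell membrane from ID8 cells, a mouse ovarian tumour line, in medium with 3% fetal calf serum. The second held BMDCs kept in the same way beside a colon carcinoma line of the mouse, CT-26. The third held control BMDCs, for which the labels name no tumour cells and give no plate, serum or time in culture, so tumour cells and culture conditions cannot be told apart in a ratio to the control. No sex, age, strain or pooling of the donor mice is given in the sources used here. Each group had 1 array, so there is no replicate, no test was run, and each ratio describes a pair of arrays.

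miR-103 and miR-107 lie within genes for pantothenate kinases, enzymes that start the synthesis of coenzyme A, and they belong to the miR-15/miR-107 group, whose members share the 6 bases AGCAGC near the 5′ end. In mouse liver and fat they are known to lower insulin sensitivity, with caveolin-1 among their targets. In breast cancer cells they are known to lower Dicer, the enzyme that cuts miRNA precursors, and with it the miR-200 family, which holds cells in an epithelial state.

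The mature sequences of the pair are almost the same. They come from RefSeq (GRCm38.p6), run 5′ to 3′, and carry the seed, bases 2 to 8, in capitals.
miR-103: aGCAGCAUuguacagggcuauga
miR-107: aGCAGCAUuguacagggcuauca
Both are 23 bases long, share 22 of them and have the same seed. They differ by 1 substitution, G22C, counted from the 5′ end with the base of miR-103 first. Both have a GC content of 47.8%. Among 1679 distinct mature mouse miRNA names in the RefSeq table, 2 have the seed GCAGCAU, miR-103-3p and miR-107-3p. The probe sequences are not given in the sources used here, and how much of each RNA the other's probe captures was not measured.

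The hairpins from which they are cut are shown to place them in the genome, with the mature miRNA in capitals.
Mir103-1: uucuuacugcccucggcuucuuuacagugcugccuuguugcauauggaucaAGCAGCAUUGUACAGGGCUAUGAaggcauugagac
Mir103-2: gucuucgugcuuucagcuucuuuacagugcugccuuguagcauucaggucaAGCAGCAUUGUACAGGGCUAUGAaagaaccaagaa
Mir107: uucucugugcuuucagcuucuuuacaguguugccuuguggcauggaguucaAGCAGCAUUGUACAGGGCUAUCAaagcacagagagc
Mir103-1 lies at chr11:35782396-35782481 on the plus strand, inside Pank3. Mir103-2 lies at chr2:131288052-131288137 on the plus strand, inside Pank2. Mir107 lies at chr19:34820687-34820773 on the minus strand, inside Pank1. In each hairpin the mature miRNA takes bases 52 to 74. The 2 miR-103 hairpins give the same mature sequence, so the miR-103 probe sums over both loci and cannot tell Pank3 from Pank2. The opposite arms are named miR-103-1-5p, miR-103-2-5p and miR-107-5p in RefSeq, and 0 probes of the array carry a name of that kind for either miRNA.

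Both miRNAs read highest beside CT-26 cells, and before scaling their readings beside ID8 cells were close to those of control BMDCs. The background-subtracted intensity of the miR-103 probe was 92.5 units on the ID8 array, 210.75 units on the CT-26 array and 75.25 units on the control array. The CT-26 reading stands apart from the other two, which lie near each other. The miR-107 probe read 65.75 units on the ID8 array, 142 units on the CT-26 array and 62.5 units on the control array, the same order as for miR-103. All 6 readings were above 50 units, the floor for calling a probe measured, which 192 of 579 mouse probes reached on the ID8 array, 178 on the CT-26 array and 175 on the control array. The ID8 and control readings lay between 1.25 and 1.85 times the floor, so these are dim probes there. The brightest of 21 empty spots read 1.75 units on the ID8 array, 2.25 units on the CT-26 array and 6 units on the control array.

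**Figure D1:**
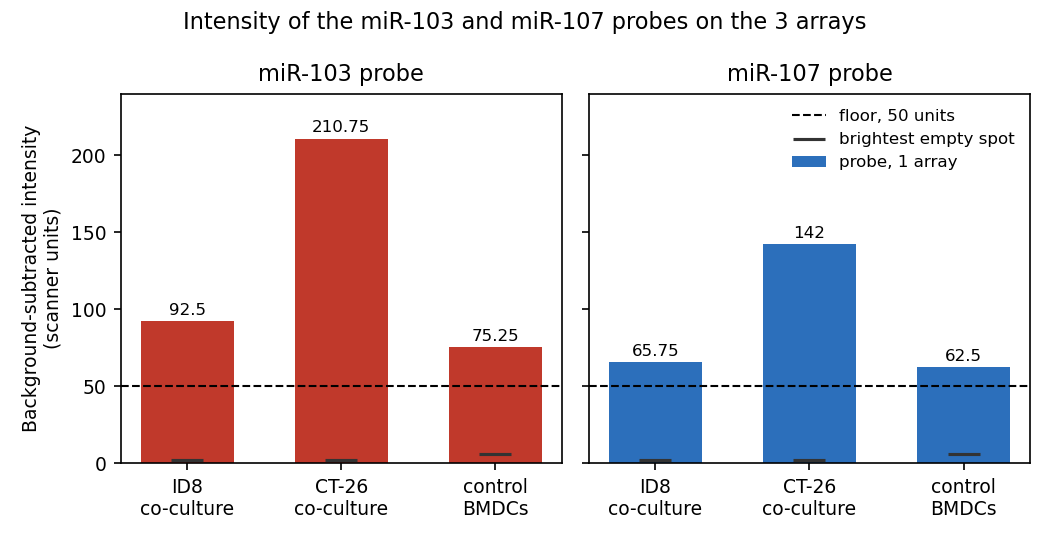
Background-subtracted intensity, in scanner units, of the miR-103 probe (left) and the miR-107 probe (right) on the ID8, CT-26 and control arrays, 1 array each. The dashed line is the floor of 50 units and the short bars mark the brightest empty spot. Both probes were highest on the CT-26 array, at 210.75 and 142 units.

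The authors' normalized intensity divides each array by its median over the 159 mouse probes above the floor on all arrays, a factor of 398.25 for ID8, 335.25 for CT-26 and 325 for control. On that linear scale miR-103 had a level of 0.232 beside ID8 cells, 0.629 beside CT-26 cells and 0.232 in control BMDCs. miR-107 had a level of 0.165 beside ID8 cells, 0.424 beside CT-26 cells and 0.192 in control BMDCs. For either miRNA the ID8 and control levels sit together and the CT-26 level sits above them.

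The first comparison asked how the pair differs between BMDCs beside ID8 ovarian tumour cells and control BMDCs. The log2 ratio of ID8 over control was 0.00 for miR-103, a fold of 1.00, and -0.22 for miR-107, a fold of 0.86. As deposited, neither reached 2-fold, the change counted as higher or lower throughout. Of 165 miRNAs measured on this pair of arrays, 4.85% passed 2-fold upward and 3.03% downward, and the median log2 ratio was 0.02. miR-103 had 87 miRNAs above it and 77 below it in the order of ratios, and miR-107 had 116 above and 48 below, so both lie in the body of the distribution. Shifting each reading by the lowest or the highest empty spot of its array, so as to widen the ratio most, gave -0.07 to 0.14 for miR-103 and -0.32 to -0.05 for miR-107. That range covers error of the local background and no other error. The ratio also depends on the scaling. Scaled to the U6-snRNA-2 probe, a loading control described below, it was -1.26 for miR-103 and -1.49 for miR-107, both past 2-fold downward. The median of all miRNAs was -1.25 under that scaling. Scaled to the small nucleolar RNA probe SNORD3@, the ratios were -0.33 for miR-103 and -0.55 for miR-107.

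Beside CT-26 colon tumour cells both miRNAs read at least 2-fold above control BMDCs. The log2 ratio of CT-26 over control was 1.44 for miR-103, a fold of 2.72, and 1.14 for miR-107, a fold of 2.20. Of 158 miRNAs measured on both arrays, 13.3% passed 2-fold upward and 6.96% downward, and since the pair was picked with its ratios known, its count of 2 is no more than a description. Both ratios to control share the control array. In the order of ratios miR-103 had 9 miRNAs above it and miR-107 had 16. The neighbours of miR-103 in that order were miR-21* at 1.58 and miR-17 at 1.41, and those of miR-107 were miR-16 at 1.20 and miR-695 at 1.08. The empty-spot range was 1.37 to 1.57 for miR-103 and 1.05 to 1.29 for miR-107.

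The size of this ratio depends on the processing. miR-103 stayed past 2-fold in 6 of 9 other scaling and background settings and miR-107 in 3 of 9. Scaled to the U6-snRNA-2 probe, which reads a spliceosomal RNA used as a loading control, the log2 ratios were 0.37 for miR-103 and 0.07 for miR-107. That probe itself read 7445.25 units on the ID8 array, 5464.5 units on the CT-26 array and 2521.75 units on the control array. Scaling to it shifts every log2 ratio of this comparison equally, and the median of all miRNAs was -1.06 under it. A second U6 probe, U6-snRNA-1, was not used for scaling. It read 116 units on the ID8 array, 36.5 units on the CT-26 array, under the floor, and 61.5 units on the control array. The log2 ratio of CT-26 over control was 1.07 for U6-snRNA-2. For U6-snRNA-1 it was -0.80, taken without the floor. The U6 probes thus disagree in direction, but that rests on a dim probe with 1 reading under the floor. The small nucleolar RNA probes SNORD3@ and SNORD2 had 0.43 and -0.47. For ID8 over control all these probes went the same way. Their log2 ratios there were 1.27 for U6-snRNA-2, 0.62 for U6-snRNA-1, 0.33 for SNORD3@ and 0.23 for SNORD2. With raw intensity in place of background-subtracted intensity the ratios were 0.97 for miR-103 and 0.63 for miR-107.

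Set against each other, the tumour lines parted for both miRNAs. The control array enters this comparison only through the choice of the 159 probes that set the scaling. The log2 ratio of ID8 over CT-26 was -1.44 for miR-103, 2.71-fold lower beside ID8 cells, and -1.36 for miR-107, 2.57-fold lower beside ID8 cells. Of 175 miRNAs measured on both arrays, 6.29% passed 2-fold downward beside ID8 cells and 2.29% upward. Of all 175, miR-194 at -2.06 and miR-129-5p at -1.44 had ratios below that of miR-103, and miR-107 came next after miR-103. The next in order after miR-107 was miR-675-5p at -1.36, so 4 miRNAs lie between -1.44 and -1.36, too close to be ranked with 1 array a group. Scaled by the probes above the floor on the ID8 and CT-26 arrays alone, the ratios were -1.58 for miR-103 and -1.50 for miR-107. The empty-spot range was -1.47 to -1.40 for miR-103 and -1.41 to -1.31 for miR-107. miR-103 stayed past 2-fold in 9 of 9 other settings, between -1.63 and -1.07. miR-107 stayed past 2-fold in 6 of 9, between -1.56 and -0.93, and fell short of it with raw intensity (-0.95), with normexp correction (-0.93) and with 50 units added (-0.95).

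**Figure D2:**
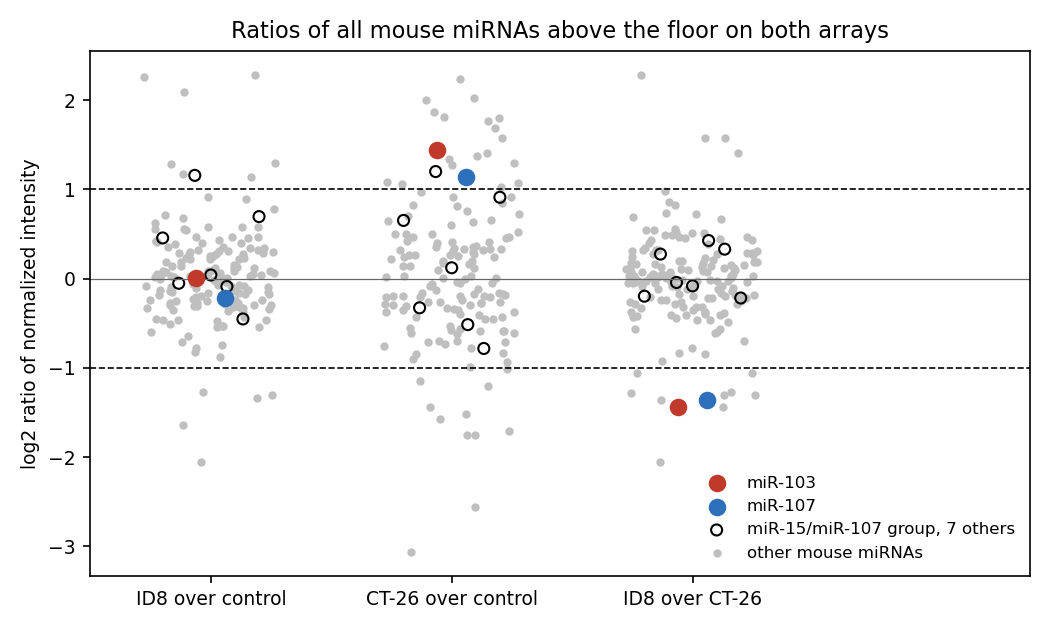
log2 ratio of normalized intensity (vertical axis) for each mouse miRNA above the floor on both arrays of a comparison, with miR-103 in red, miR-107 in blue, the other 7 members of the miR-15/miR-107 group as open circles and dashed lines at 2-fold. The pair lies near 0 for ID8 over control, at 1.44 and 1.14 for CT-26 over control and at -1.44 and -1.36 for ID8 over CT-26.

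**Figure D3:**
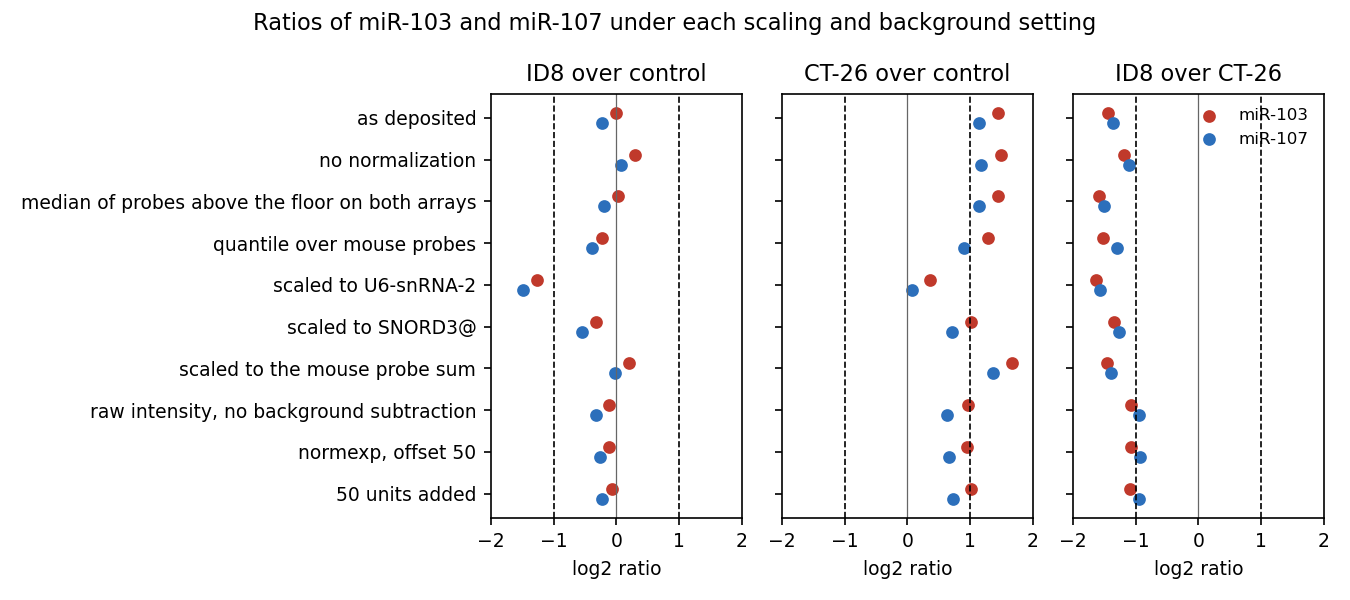
log2 ratios (horizontal axis) of miR-103 and miR-107 in the 3 comparisons, as deposited and under 9 other scaling or background settings, with dashed lines at 2-fold. The ID8 over CT-26 ratios stay below 0 in every setting drawn, and U6-snRNA-2 scaling moves both ratios to control by over 1 on the log2 scale.

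miR-103 and miR-107 differed little from each other in any comparison. The log2 ratio of miR-103 minus that of miR-107 was 0.22 for ID8 over control, 0.30 for CT-26 over control and -0.08 for ID8 over CT-26. Other miRNAs of nearly the same sequence give a scale for these gaps. Among 66 names whose mature arm was assigned, 10 other pairs of equal length differ by at most 2 bases and were measured on all arrays, 9 of them within the let-7 family and the remaining one miR-17 with miR-20a. Their gaps, without sign, ran between 0.01 and 0.52 for ID8 over control (median 0.11), between 0.02 and 0.51 for CT-26 over control (median 0.10) and between 0.01 and 0.44 for ID8 over CT-26 (median 0.16). The gaps between miR-103 and miR-107 lie inside these ranges. These pairs share members, so they are not independent. Of the 10 pairs, miR-17 with miR-20a was at least 2-fold higher in both miRNAs for CT-26 over control, as was miR-103 with miR-107. Of all single miRNAs, 13.3% were past 2-fold upward there. In ID8 over CT-26, 0 of the 10 pairs had both miRNAs past 2-fold in the same direction, and miR-17 and miR-20a stood at -0.12 and -0.08. Of all single miRNAs, 6.29% were past 2-fold downward and 2.29% upward there, so that count says nothing particular about the 10 pairs. miR-103 and miR-107 were chosen with their difference known, so setting them against these pairs is a description only.

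The 2 probes lie in different blocks of the array, block 1 for miR-103 and block 8 for miR-107. Within block 1, the other 15 mouse probes above the floor on all arrays had a median log2 ratio of 0.27 for CT-26 over control and -0.01 for ID8 over CT-26. Within block 8, 21 such probes had medians of 0.20 and -0.19. The spots touching the miR-103 spot that were above the floor, 3 of 8, had log2 ratios of CT-26 over control between -0.66 and 0.94, with a median of 0.30. The spots touching the miR-107 spot that were above the floor, 2 of 5, had -0.18 and -0.11, and 1 of them is a Hy3 marker spot. The local background under the miR-103 spot was 50 units on the ID8 array, 47.75 units on the CT-26 array and 55.75 units on the control array. Under the miR-107 spot it was 50 units on the ID8 array, 49.5 units on the CT-26 array and 60.75 units on the control array. At either spot the background was highest on the control array and lowest on the CT-26 array.

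The other members of the miR-15/miR-107 group show how far the pattern of the pair extends among miRNAs with the same core. Their mature sequences from RefSeq (GRCm38.p6), with bases 2 to 8 in capitals, are shown for comparison with the pair.
miR-15a: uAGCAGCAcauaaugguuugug
miR-15b: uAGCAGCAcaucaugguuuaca
miR-16: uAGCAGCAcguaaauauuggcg
miR-195: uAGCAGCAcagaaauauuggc
miR-322: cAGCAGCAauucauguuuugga
miR-497: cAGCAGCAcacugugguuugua
miR-503: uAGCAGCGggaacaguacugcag
AGCAGC, read in the sense direction, takes bases 1 to 6 of miR-103 and miR-107 and bases 2 to 7 of these 7 miRNAs, so the seed of the pair is shifted by 1 base. Of the 1679 mature miRNAs, 13 (0.774%) hold AGCAGC within their 8 bases at the 5′ end.

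In these 7 miRNAs the co-culture arrays read more alike than in the pair, which was chosen for its difference. The log2 ratio of ID8 over CT-26 ran between -0.22 for miR-503 and 0.43 for miR-322, with a median of -0.04, where all 175 miRNAs had a median of -0.01. Past 2-fold were 0 of 7, near the background of 6.29% lower and 2.29% higher, so that count says nothing particular about the group. miR-16, known to hold back cell division and Bcl2, read 679 units beside ID8 cells, 588.75 units beside CT-26 cells and 248.25 units in control BMDCs. Its readings were thus high on both co-culture arrays, unlike those of miR-103 and miR-107. miR-322 and miR-503, made from the same transcript on the X chromosome, had log2 ratios of CT-26 over control of -0.52 and 0.91. miR-15a, which lies beside miR-16 in its gene, had 0.65, miR-15b -0.33, miR-195 0.12 and miR-497 -0.78. Over the 7, the median was 0.12 for CT-26 over control, with 1 past 2-fold (miR-16), and 0.04 for ID8 over control, again with miR-16 as the 1 past 2-fold. Over all miRNAs measured, 13.3% were past 2-fold upward for CT-26 over control and 4.85% for ID8 over control. Under U6-snRNA-2 scaling every log2 ratio of CT-26 over control is lower by 1.07 and every ratio of ID8 over control by 1.27. miR-424, the human name of miR-322, has no mouse probe of that name.

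**Figure D4:**
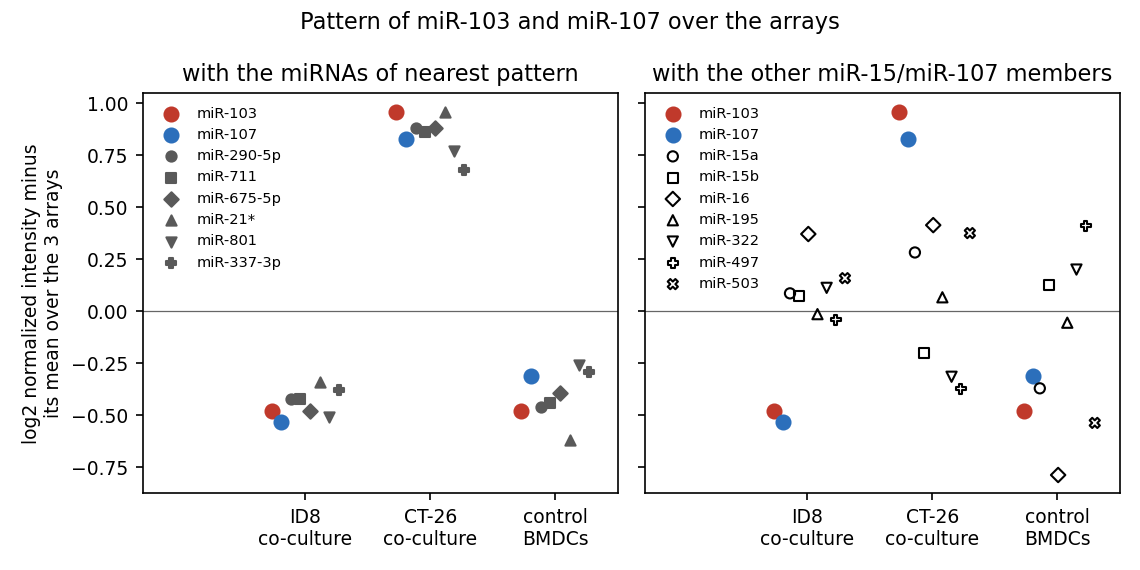
log2 normalized intensity of each miRNA minus its own mean over the 3 arrays (vertical axis) on the ID8, CT-26 and control arrays. miR-103 (red) and miR-107 (blue) lie with the 6 miRNAs of nearest pattern (left, filled grey) at 0.96 and 0.83 on the CT-26 array, while the other 7 miR-15/miR-107 members (right, open) lie below them there.

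Apart from miR-107 as a neighbour of miR-103, none of the miRNAs nearest in pattern to either was a listed member of the miR-15/miR-107 group. Likeness was the distance between log2 levels over the 3 arrays, each miRNA centred on its own mean, among the 158 miRNAs measured on all arrays. For miR-103 the 5 nearest were miR-290-5p (distance 0.10), miR-711 (0.12), miR-675-5p (0.12), miR-21* (0.19) and miR-107 (0.22), where the median distance was 1.21. For miR-107 the 5 nearest were miR-801 (0.08), miR-675-5p (0.11), miR-711 (0.17), miR-290-5p (0.20) and miR-337-3p (0.21), where the median distance was 1.10. miR-103 came sixth for miR-107, at 0.22. With 3 arrays and 1 array setting the pattern apart, many miRNAs can fall close together, and likeness over so few points is a description only.

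These neighbours span a wide range of brightness. miR-711 read 89.75 units on the ID8 array, 184.25 units on the CT-26 array and 72.5 units on the control array, much like the pair. miR-21*, the opposite arm of miR-21, read 1268.5 units on the ID8 array, 2633 units on the CT-26 array and 855 units on the control array. miR-801 read 1738.25 units on the ID8 array, 3538 units on the CT-26 array and 1686 units on the control array. They were picked for this pattern, so their higher CT-26 readings are no separate observation. miR-675-5p, made from the H19 transcript, read 260 units on the ID8 array, 560.75 units on the CT-26 array and 225.25 units on the control array. miR-290-5p, of a cluster known for embryonic stem cells, read 270.25 units on the ID8 array, 559.75 units on the CT-26 array and 213.5 units on the control array. miR-337-3p had a log2 ratio of 0.97 for CT-26 over control.

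Sequence likeness to miR-103 was slight in these neighbours, which are printed from RefSeq (GRCm38.p6) with bases 2 to 8 in capitals so that they can be set beside the pair.
miR-290-5p: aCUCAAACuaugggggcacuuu
miR-711: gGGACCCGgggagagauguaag
miR-675-5p: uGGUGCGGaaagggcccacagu
miR-21*: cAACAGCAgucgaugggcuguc
miR-337-3p: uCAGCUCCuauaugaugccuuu
The longest run of bases shared with miR-103 was 5 in miR-290-5p, miR-675-5p, miR-21* and miR-337-3p and 4 in miR-711. A run of at least 5 was found in 41.0% of 61 measured miRNAs with an assigned sequence, whose median was 4. The GC content was 63.6% in miR-711 and miR-675-5p, 59.1% in miR-21*, 45.5% in miR-290-5p and 40.9% in miR-337-3p, against a median of 45.5% over measured miRNAs with a sequence and 47.8% in the pair. miR-801 had no entry in the RefSeq table. The genomic positions are chr7:3218639-3218660 on the plus strand for miR-290-5p, chr9:108969970-108969991 on the plus strand for miR-711, chr7:142577112-142577133 on the minus strand for miR-675-5p, chr11:86584082-86584103 on the minus strand for miR-21* and chr12:109585850-109585871 on the plus strand for miR-337-3p. miR-21* shares chromosome 11 with Mir103-1, and the others lie on chromosomes that hold no miR-103 or miR-107 locus.

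Few other miRNAs linked to insulin and lipid metabolism could be read. Of 10 listed, 7 were under the floor on all 3 arrays. They include miR-33, a regulator of cholesterol export, at most 6.25 units, and miR-375, of pancreatic islets, at most 0.75 units. Of all 579 mouse probes, 192 reached the floor on the ID8 array, 178 on the CT-26 array and 175 on the control array. The 7 of 10 thus says nothing particular about the list. miR-29a, which is raised in diabetic tissues of rodents, had a log2 ratio of 0.28 for ID8 over CT-26 and 0.40 for CT-26 over control. miR-122, the main miRNA of liver, had 0.07 and -0.28. miR-27a, which restrains fat cell formation, had -0.48 for ID8 over CT-26 and was at least 2.29-fold higher beside CT-26 cells than in control BMDCs, where it was under the floor at 33.75 units. It was also at least 1.64-fold higher beside ID8 cells than in control BMDCs. Between the tumour lines 0 of the 3 measured members passed 2-fold, where 6.29% of all miRNAs were lower and 2.29% higher, so nothing can be read from that count.

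Of the 5 listed members of the miR-200 family, which is known to fall when miR-103 and miR-107 rise in breast cancer cells, 4 were unreadable here. miR-141, miR-200a, miR-200c and miR-429 read at most 22 units on any array. Most mouse probes were under the floor on each array, so that count says nothing particular about the family. miR-200b read 141.5 units on the ID8 array, 97.25 units on the CT-26 array and 143.5 units on the control array. Its log2 ratio was 0.29 for ID8 over CT-26, -0.31 for ID8 over control and -0.61 for CT-26 over control, none of them past 2-fold. The list left out the opposite arms. Of these, miR-200c* read 134.75 units on the ID8 array, 57.25 units on the CT-26 array and 150.75 units on the control array. Its log2 ratio of CT-26 over control was -1.44, past 2-fold downward, as for 6.96% of all miRNAs measured. miR-200b* had -0.75 and miR-141* -0.21, and miR-200a* read at most 2.75 units. Any link of these readings to the pair was not tested.

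Markers of the labelled cells were present. All 7 listed myeloid miRNAs reached the floor beside either tumour line and 5 of 7 did in control BMDCs, where miR-155 and miR-223 read 49.5 and 49 units. Their summed normalized level was 6.67 beside ID8 cells, 7.06 beside CT-26 cells and 2.53 in control BMDCs. As deposited it was thus higher on both co-culture arrays, and not on the CT-26 array alone as for the pair. The rise was uneven over the 5 with a measured ratio to control. Their log2 ratios ran between 0.13 and 2.29 for ID8 over control and between -0.41 and 2.24 for CT-26 over control. U6-snRNA-2 scaling lowers these ratios by 1.27 and 1.07 in turn. Among them miR-142-3p, from a precursor of blood cells, read 409.5 units beside ID8 cells, 236.75 units beside CT-26 cells and 305 units in control BMDCs. The other arm of that precursor, miR-142-5p, went the other way on the CT-26 array. It read 501.25 units beside ID8 cells, 752.25 units beside CT-26 cells and 181.5 units in control BMDCs. Of 10 epithelial markers, 2 were above the floor on each array, miR-200b and miR-194. Since most mouse probes were under the floor on each array, that count says nothing particular about these markers. miR-194, of intestine and liver, read 53.25 units beside ID8 cells, 187 units beside CT-26 cells and 51.75 units in control BMDCs, and so moved with miR-103 and miR-107, while miR-192 and miR-215 of the same lineage read at most 19.75 units. The summed normalized level of the epithelial markers was 0.634 beside ID8 cells, 0.998 beside CT-26 cells and 0.774 in control BMDCs. Without miR-194 the sum was 0.500 beside ID8 cells, 0.440 beside CT-26 cells and 0.615 in control BMDCs, lowest on the CT-26 array. miR-205 was below 0 units on all arrays and miR-429 was at most 0.25 units. The part of RNA from the tumour cells in the miR-103 and miR-107 readings was not tested. Lymphoid, mesenchymal and erythroid markers had summed levels of 0.227, 0.980 and 0.303 beside ID8 cells, 0.197, 0.969 and 0.283 beside CT-26 cells and 0.239, 1.26 and 0.426 in control BMDCs. These sums hold mostly probes under the floor. Of 3 lymphoid markers, 1 reached it on the ID8 array and 0 on the others. Of 4 mesenchymal markers matched by name, only miR-214 reached it. miR-199a-3p was also listed, but its probe is named jointly with miR-199b, so it was not matched and is not in the sum. That probe read at most 2.25 units on any array, under the floor. Of 3 erythroid markers, miR-451 reached it on the co-culture arrays and miR-486 on the control array, so these 2 went opposite ways. In these bulk samples, fewer cells of a type and less RNA per cell cannot be told apart.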

How the data were processed

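The authors deposited raw, background-corrected and normalized intensity for 1408 probes on 3 arrays, per the file headers. Total RNA was labelled with Hy3 and read with a GenePix 4000B scanner, per the labels' protocols and the series' design text. Corrected over normalized intensity was constant within each array and equalled the median of the 159 mouse probes above the floor on all arrays. The series matrix holds the same linear values. The table and design text spell the ID8 line 1D8. Coordinates and sequences are those of RefSeq, matched by name for both miRNAs.

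Log2 ratios were taken from the normalized intensity where the corrected intensity reached 50 on each array compared, averaging probes of a name on log2. Where 1 array was under the floor, the ratio is a bound, save for U6-snRNA-1, whose ratios were taken without the floor. Arms missing from table names were assigned from general knowledge. Members, lists and rules were chosen with earlier results of these data known. The named miRNAs are the pair, the miR-15/miR-107 group, the 5 nearest in pattern, and of the metabolism and miR-200 lists those past 2-fold or largest in either direction. Neighbours in an order, list members under the floor, single markers and opposite arms of the miR-200 family were named after their values were seen. Alternatives were 9 scaling and background settings (normexp from limma 3.58.1), floors of 100, 200 and none, and thresholds of 1.5-fold and 4-fold. The calculation was tested on simulated data, with 4-fold changes placed only in probes of at least 200 units on the control array. The probes of the pair were dimmer there, so the simulation does not show how well ratios of such dim probes are recovered. The number of arrays limits the precision.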

Additional observations from a re-analysis of the deposited data

Results flagged for a closer look

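Of the 158 miRNAs measured on all arrays, 27 had ratios to control of opposite sign beside ID8 and CT-26 cells, and 6 of those named in the text were among them. Each rests on 1 array per group, both ratios share the control array, and the difference was not tested. miR-675-5p, miR-801 and miR-337-3p were named because their pattern was near that of miR-107, so their opposite signs follow from that choice. The count of 6 is therefore a description and not to be set against the 27. miR-107 had -0.22 for ID8 over control and 1.14 for CT-26 over control, a difference of -1.36. miR-675-5p had -0.09 and 1.27, a difference of -1.36. miR-801 had -0.25 and 1.02, a difference of -1.27. miR-337-3p had -0.09 and 0.97, a difference of -1.06. miR-194 had -0.25 and 1.81, a difference of -2.06. miR-142-3p had 0.13 and -0.41, a difference of 0.54, while the other arm, miR-142-5p, had 1.17 and 2.01, of the same sign. Without normalization the ID8 over control ratios were 0.07 for miR-107, 0.21 for miR-675-5p, 0.04 for miR-801, 0.20 for miR-337-3p and 0.04 for miR-194, so the signs of these 5 are no longer opposite. miR-142-3p then had 0.43 for ID8 over control and -0.37 for CT-26 over control, still opposite.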

How the results depend on the processing

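The 9 settings gave 54 values for the 6 ratios of miR-103 and miR-107, of which 50 moved by less than 1.5-fold and 4 by more, all 4 under U6-snRNA-2 scaling. There miR-103 had -1.26 for ID8 over control and 0.37 for CT-26 over control, and miR-107 had -1.49 and 0.07. No replicate spread exists, so 1.5-fold was used as the measure of a move. The empty-spot range and the epithelial sum without miR-194 were added after the data were seen, and the empty-spot range moved no ratio by 1.5-fold. For ID8 over control, the sign of the miR-103 ratio, which lies at 0.00, changed between settings, and that of miR-107 was above 0 without normalization (0.07). At a floor of 100 or 200 units neither miRNA was measured on the ID8 and control arrays, so no ratio is given there. The counts of miRNAs at least 2-fold apart were 13 for ID8 over control, 32 for CT-26 over control and 15 for ID8 over CT-26. With a floor of 100 they were 7, 19 and 10, with a floor of 200 they were 3, 14 and 9, and with no floor 95, 133 and 66. Under U6-snRNA-2 scaling they were 118 (1 higher, 117 lower), 84 (1 and 83) and 18 (4 and 14), against 8 and 5, 21 and 11, and 4 and 11 as deposited. Scaled to SNORD3@, 3 were higher and 10 lower, 10 and 31, and 5 and 9; without normalization 12 and 4, 22 and 10, and 7 and 9; scaled to the probe sum 10 and 5, 28 and 8, and 4 and 11. At 1.5-fold they were 27, 65 and 29 and at 4-fold 4, 5 and 2. No paired analysis was possible because each group had 1 array.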
